A study of Homo sapiens with 6 samples.

Results

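Mitochondria fuse and divide in cells, and 6 genes of this machinery are described here by the splicing of their transcripts in lung adenocarcinoma cells that overexpressed SAM68. MFN1 and MFN2 encode the mitofusins, GTPases of the outer membrane that join mitochondria, and OPA1 encodes the dynamin-like GTPase that fuses the inner membrane. DNM1L encodes DRP1, the dynamin-like GTPase that constricts and divides mitochondria, MFF encodes an outer membrane receptor that recruits DRP1, and MTFR1 encodes a regulator of fission. OPA1, DNM1L and MFF are known to have alternative coding exons, so that each gene gives several proteins.

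The events were chosen by gene and by depth: all alternative splicing (AS) events listed for these 6 genes that had a mean of at least 10 junction reads over the 6 libraries. This left 109 of the 110 events listed for the genes, out of 66400 events of all genes above the same minimum and 78336 events listed in all. The 109 events were 33 of MFF, 26 of OPA1, 20 of DNM1L, 11 of MFN2, 10 of MFN1 and 9 of MTFR1. They were 82 skipped exon (SE) events, 21 events of mutually exclusive exons (MXE), 3 of alternative 3ʹ splice sites (A3SS), 2 of alternative 5ʹ splice sites (A5SS) and 1 retained intron (RI). The lowest depth inside the minimum was 10.8 reads, in an A5SS event of MFF, and the event outside it was an SE event of DNM1L with 2.17 reads. Of the 82 SE events, several share an exon and differ in its neighbours, so that they cover 59 exons and share reads.

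NCI-H1975 is an established human lung adenocarcinoma line. The control group received the empty PCDNA3.1 plasmid and the SAM68 group the PCDNA3.1-SAM68 plasmid (2 µg per well), both by lipofection, and RNA was taken after 48 h. SAM68 is an RNA-binding protein of the STAR family that binds A/U-rich motifs and takes part in AS. Each group had 3 libraries, described in the study's methods as biological replicates, and all came from this 1 line. The comparison asks which splicing events differ when SAM68 is raised from a plasmid that is not under the gene's own promoter.

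The SE events of a library held 16951876 to 19737729 junction reads. KHDRBS1, which encodes SAM68, had 312, 329 and 316 reads per 1000000 (rpm) with the empty plasmid and 1232, 1261 and 1278 with SAM68, a log2 fold change of 1.98 (standard error 0.0473, limma, adjusted p = 1.40e-21). Reads of the plasmid and of the gene itself cannot be told apart here. Of the epithelial genes, KRT18 had 472 to 531 rpm, KRT8 had 230 to 520 rpm with the highest value in the control library in list position 1, and KRT7 had 1.26 to 4.49 rpm. EPCAM and CDH1 had no event with a mean of at least 10 reads, and neither had the blood and fibroblast genes PTPRC, COL1A1 and COL1A2. These could therefore not be used to check the line.

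The percent spliced in (PSI) is the share of the inclusion form, with counts scaled by effective length, and differences are SAM68 minus control in percentage points, with a standard error from the spread of the libraries. The p-value did not use an event's own spread: the moderation gave all events of a type a common dispersion, 2.30 times the binomial variance for SE events. An event was called when its adjusted p was under 0.05 and its difference at least 10 points. Of the 109 events, 1 was called, an exon of OPA1, while 0.0934% of all tested events (62 of 66400) and 0.0738% of SE events were called. An unadjusted p under 0.05 was found for 9 of the 109 events against 5.95% of all events. The PSI of the groups did not overlap in 6 of the 109 events, 5 of them higher and 1 lower in the SAM68 libraries, which is 5.50%, against 6.42% of all events. The median absolute difference was 1.06 points in the 109 events and 1.24 points in all events, and it was under 5 points in 94 of the 109 (86.2%).

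**Figure D1:**
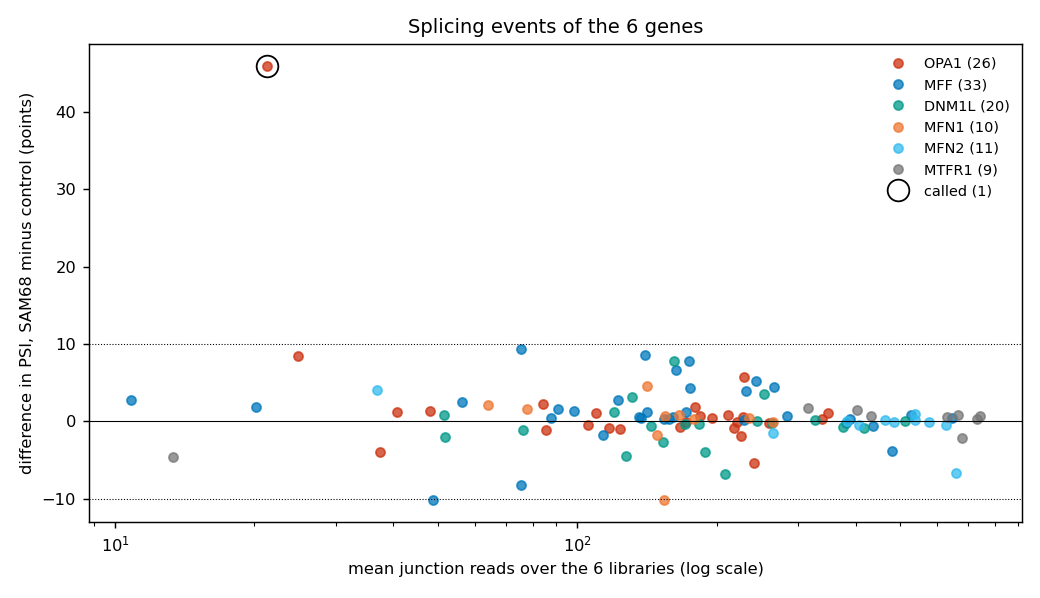
Difference in PSI (points, SAM68 minus control) of the 109 tested events against their mean junction reads over the 6 libraries (log scale), coloured by gene with the number of events, dotted lines at 10 points either way. The ringed OPA1 event at 46.0 points and 21.3 reads is the called event, and of the others only an MFF and an MFN1 event lie past 10 points, both at -10.2.

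OPA1 (ENSG00000198836.9) is on the + strand of chromosome 3 (GRCh38), 193593144 to 193697811. Exons are numbered here as in the canonical transcript, in which exons 4, 5 and 7 are alternative. Exons 5 and 7 are named 4b and 5b in the usual numbering of this gene. Exon 4 is at 193617178 to 193617285 (108 nt), exon 5 at 193617784 to 193617837 (54 nt) and exon 7 at 193626092 to 193626202 (111 nt). All have lengths that keep the reading frame. Exon 7 encodes a site at which the protease YME1L1 cleaves OPA1, and OMA1 cleaves it at a site encoded by exon 6. The sequences of the 3 exons (GRCh38) are shown because the OPA1 results concern their joining, with the exon in capitals and 40 nt of intron on each side in lower case.
OPA1 exon 4: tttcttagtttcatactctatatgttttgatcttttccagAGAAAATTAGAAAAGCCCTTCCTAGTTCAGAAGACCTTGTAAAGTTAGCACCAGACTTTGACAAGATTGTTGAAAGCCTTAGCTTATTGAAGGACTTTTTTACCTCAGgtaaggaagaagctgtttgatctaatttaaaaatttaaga
OPA1 exon 5 (4b): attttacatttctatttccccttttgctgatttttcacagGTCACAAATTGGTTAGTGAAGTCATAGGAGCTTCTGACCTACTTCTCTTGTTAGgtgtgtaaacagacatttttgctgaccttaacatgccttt
OPA1 exon 7 (5b): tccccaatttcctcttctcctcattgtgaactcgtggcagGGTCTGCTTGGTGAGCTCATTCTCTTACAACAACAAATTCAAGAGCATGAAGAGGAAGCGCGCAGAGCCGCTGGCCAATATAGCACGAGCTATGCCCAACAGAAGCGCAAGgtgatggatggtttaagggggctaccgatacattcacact

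The called event was the inclusion of exon 5 between exons 3 and 6. In the control libraries 17, 13 and 10 reads included the exon and 6, 16 and 5 joined exon 3 to exon 6, which gave a PSI of 66.8%, 36.6% and 58.7%. In the SAM68 libraries 13, 27 and 21 reads included it and 0 of 61 reads joined exon 3 to exon 6, so that the PSI was 100% in each. Each SAM68 library was above each control library. The mean rose from 54.0% ± 15.6 (SD, n = 3) by 46.0 points (standard error 9.03, quasi-binomial test, adjusted p = 0.0227), while the exact permutation test gave p = 0.1, the smallest that 3 against 3 libraries allow. The 0 of 61 reads allows the skipping form up to 4.92% of the reads, or 6.47% on the length-scaled PSI scale, counting error only. In RNA from bulk cells, a form lost from some cells and a lower level in all cells cannot be told apart.

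The skipping reads of the called event lie at the junction that skips both exon 4 and exon 5. They numbered 27 in the control and 0 in the SAM68 libraries, while its inclusion reads numbered 40 and 61. The skipping junction is joined as follows, with the last 20 nt of exon 3 in capitals and the first 20 nt of exon 6 in lower case. The junctions that keep exon 4 or exon 5 are shown beside it.
OPA1 exon 3 to exon 6: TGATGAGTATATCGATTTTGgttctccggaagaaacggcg
OPA1 exon 3 to exon 4: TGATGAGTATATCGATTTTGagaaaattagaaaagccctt
OPA1 exon 4 to exon 6: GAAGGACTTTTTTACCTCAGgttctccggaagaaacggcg
OPA1 exon 5 to exon 6: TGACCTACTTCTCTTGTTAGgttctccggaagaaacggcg

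The same reads are the skipping count of exon 4, so the 2 events are not independent. Exon 4 between exons 3 and 6 had PSI values of 95.2%, 91.8% and 95.8% in the control libraries, from 219, 328 and 210 inclusion reads. In the SAM68 libraries, with 199, 164 and 227 inclusion reads, it had PSI values of 100% in each. The groups did not overlap, but the difference of 5.69 points (standard error 1.25) did not pass the test (adjusted p = 0.121), and it was 3.21 points without normalization by length. Set against these deeper counts, 0 of 590 reads skipped exon 4 with SAM68, which allows up to 0.508% of the reads, or 0.918% on the PSI scale, against 27 of 784 in the control libraries. In the whole table, 11 of 66400 events had a minor form with at least 5 reads in each control library and 0 in each SAM68 library. These 2 OPA1 events are among them, and 4 events had the opposite pattern.

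In the event of exon 5 with the most reads, its neighbours were exons 4 and 6. In this event, with 131 to 240 reads per library, its PSI was 32.1%, 21.9% and 28.8% with the empty plasmid and 32.7%, 30.5% and 25.1% with SAM68. The groups overlapped, and the difference of 1.80 points (standard error 3.76) did not pass the test (adjusted p = 0.765). Omitting the first or the second listed control gave 4.05 or -1.06 points, and omitting the first or the third listed SAM68 library gave 0.17 or 3.96. The junction of exon 5 to exon 6 had 42, 37 and 40 reads with the empty plasmid and 47, 36 and 39 with SAM68. These are more than the 10 to 27 inclusion reads of the called event, and how rMATS assigned reads that span several junctions is not given in the sources used here. What the inclusion count of the called event holds is therefore not known, and its PSI and the 46.0 points rest on that count. The difference fell to 4.93 points (adjusted p = 0.730) when the reads of all events of exon 5 were summed. Another event of exon 5, which ends in an upstream 3ʹ splice site of exon 6, had PSI values of 100%, 100% and 74.7% with the empty plasmid and 100% in each SAM68 library (8.42 points, adjusted p = 0.699), a difference that became 0 on omitting the third listed control.

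The call of exon 5 also rested on few reads. The adjusted p was 0.330 without the control library in list position 2, which held 16 of the 27 skipping reads. It was 0.0823, 0.243 and 0.131 without each SAM68 library in turn, although the difference then stayed at 46.0 points. It was 0.692 with an unmoderated spread and 0.426 when limma was run on logit PSI. Forms seen in few libraries were common: in 33 of the 109 events (30.3%) the minor form was seen in a single library, with at most 6 reads, and the share was 30.7% in all events.

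The PSI of exon 7 showed no difference larger than its spread. It was 33.7%, 31.2% and 40.7% with the empty plasmid and 36.9%, 33.8% and 32.8% with SAM68. The difference was -0.69 points (standard error 3.08, adjusted p = 0.980). The OPA1 exons with the most reads were almost always included. Exon 2 (193614723 to 193615041) had PSI values of 92.8% to 97.5%, exon 15 (193643528 to 193643627) 98.3% to 100% and exon 25 (193659482 to 193659561) 99.2% to 100%, and none passed the test. In the MXE event of exons 4 and 5, exon 4 had a mean of 93.4% ± 2.24 (SD, n = 3) and 87.98% ± 5.02 (SD, n = 3), which overlapped (adjusted p = 0.586). Its counts are the inclusion reads of exons 4 and 5 in their events between exons 3 and 6, so it is not a separate result. Exons 4 and 5 can both be included, so this share is not a choice between them.

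**Figure D2:**
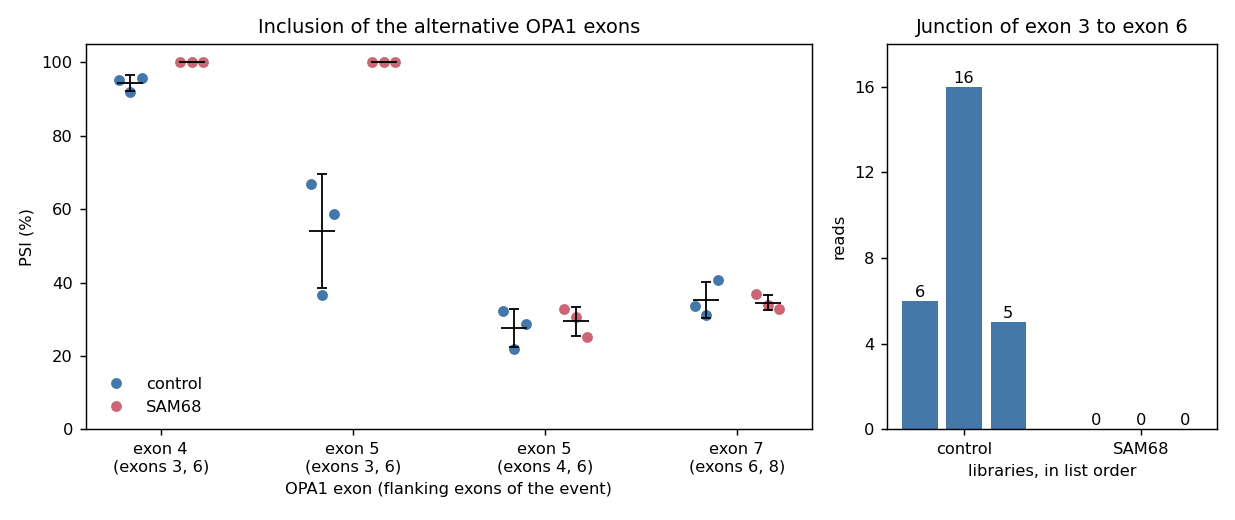
Left, PSI (%) of OPA1 exons 4, 5 (4b) and 7 (5b) in each library (points), with mean and SD over 3 libraries (bars), and in brackets the flanking exons of the event. Right, reads of the junction of exon 3 to exon 6 in each library: 6, 16 and 5 with the empty plasmid and 0 in each SAM68 library.

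Motifs known for SAM68 (TAAA and TTAA in DNA letters) and hnRNP A1 (TAGG) were searched on the sense strand in the 100 nt on each side of the exons. TAAA and TTAA overlap in TTAAA and were counted separately. The 100 nt after OPA1 exon 4 held 3 matches of TAAA and 4 of TTAA, those after exon 5 held 4 and 2, and those after exon 7 held 0 and 1. The 100 nt before exons 4, 5 and 7 held 1, 1 and 0 matches of TAAA and 2, 1 and 1 of TTAA. No TAGG lay within these windows of the 3 exons, and exon 5 itself held 1. Exons and windows were searched apart, and the printed sequence of exon 5 holds another TAGG across the end of the exon. At least 3 matches of TAAA were found after 5.79% of the 38685 tested exons of all genes and 11.9% of the 59 exons of the 6 genes, and at least 4 after 1.54% and 5.08%. At least 1 TAAA was found after 41 of the 59 exons of the 6 genes (69.5%) and after 42.1% of all tested exons. TTAA was found after 40 of the 59 (67.8%) and after 41.5% of all. TAGG was found after 16 of the 59 (27.1%) and after 28.8% of all. Before the exons, TAAA was found in 49.2% of the 59 and 40.9% of all, TTAA in 69.5% and 44.3%, and TAGG in 15.3% and 20.5%. A match is a string of letters and does not show binding.

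MFF (ENSG00000168958.19) is on the + strand of chromosome 2, 227325151 to 227357833. Between exons 5 and 8 it has 3 alternative coding exons, of 75 nt (227342745 to 227342819, not in the canonical transcript), 159 nt (exon 6, 227347226 to 227347384) and 60 nt (exon 7, 227352514 to 227352573). These keep the reading frame and are shown because they form the isoforms that the MFF counts distinguish.
MFF 75-nt exon: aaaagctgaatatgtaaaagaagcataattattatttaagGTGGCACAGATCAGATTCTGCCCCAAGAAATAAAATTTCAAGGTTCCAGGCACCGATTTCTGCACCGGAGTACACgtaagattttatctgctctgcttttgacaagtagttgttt
MFF exon 6: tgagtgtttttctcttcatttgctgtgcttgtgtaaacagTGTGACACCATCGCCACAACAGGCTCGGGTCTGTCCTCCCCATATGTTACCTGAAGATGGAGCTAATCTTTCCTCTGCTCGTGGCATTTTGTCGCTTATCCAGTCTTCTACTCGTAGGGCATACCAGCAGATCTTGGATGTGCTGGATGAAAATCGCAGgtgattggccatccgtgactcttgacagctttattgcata
MFF exon 7: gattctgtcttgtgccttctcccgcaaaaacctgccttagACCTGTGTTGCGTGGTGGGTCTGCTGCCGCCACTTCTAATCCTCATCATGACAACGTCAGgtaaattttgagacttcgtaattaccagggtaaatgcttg

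The junction that leaves out all 3, from exon 5 to exon 8, had 190, 229 and 215 reads with the empty plasmid and 197, 193 and 139 with SAM68. Against this junction, the 75-nt exon had PSI values of 10.5%, 9.34% and 15.1% with the empty plasmid and 15.1%, 14.9% and 20.4% with SAM68. The groups overlapped, and the difference of 5.16 points (standard error 2.52) had an unadjusted p of 0.0441 and did not pass the test (adjusted p = 0.699). Exon 6 had PSI values of 12.4%, 15.5% and 13.7% with the empty plasmid and 16.9%, 15.7% and 22.1% with SAM68. The groups of exon 6 did not overlap, but the difference of 4.38 points (standard error 2.16) did not pass the test either (adjusted p = 0.699). Both comparisons share the skipping reads, of which the SAM68 library in list position 3 held the fewest. Without this library the differences were 3.35 points for the 75-nt exon and 2.43 points for exon 6. Exon 7 had PSI values of 24.2%, 25.8% and 22.0% with the empty plasmid and 26.6%, 22.0% and 25.5% with SAM68, a difference of 0.70 points (standard error 1.79).

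The largest MFF differences were in shallower events of the same exons. After the 75-nt exon, exon 6 had PSI values of 56.8%, 60.0% and 37.7% with the empty plasmid and 36.6%, 38.5% and 48.7% with SAM68 (-10.2 points, standard error 7.92, adjusted p = 0.699). This difference turned to 5.46 points when the events of exon 6 were summed, while omitting the second or the third listed control gave -5.95 or -17.1 points. The 75-nt exon before exon 7 had PSI values of 39.6%, 21.6% and 41.5% and of 33.8%, 46.4% and 50.5%, in that order of groups (9.29 points, standard error 8.09, adjusted p = 0.699). Omitting the second listed control left 2.98 points, omitting the first or the third listed SAM68 library gave 14.2 or 5.82 points, and summing the events of the exon gave 4.86 points. The groups overlapped in both. The MFF events with the most reads were at the start of the gene. Exon 2 (227328678 to 227328789, untranslated) had PSI values of 60.8% to 70.8% and exon 3 (227330626 to 227330846) had 66.9% to 76.4%. A listed form that runs unspliced from exon 2 to the end of exon 3 had 71.1% to 80.5%, but its outer junctions are those of exons 2 and 3. The RI event of this intron had 0 reads of the retained form in 5 libraries and 2 in the SAM68 library in list position 3, against 121 to 192 reads of the spliced form. None of these differences passed the test. A 178-nt exon between exons 2 and 3 (227329606 to 227329783) had the lowest unadjusted p of MFF (0.00768), with 11, 24 and 7 inclusion reads with the empty plasmid and 38, 26 and 22 with SAM68. It was named after its values were seen, and its difference of 4.25 points had an adjusted p of 0.632.

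DNM1L (ENSG00000087470.17) is on the + strand of chromosome 12, 32679200 to 32745650. Exons 15 (32737865 to 32737942, 78 nt) and 16 (32738264 to 32738296, 33 nt) encode parts of the variable domain of DRP1, and a 39-nt exon (32705825 to 32705863) in the GTPase domain is known from the brain. They are printed because the isoforms of DRP1 are set by these exons.
DNM1L 39-nt exon: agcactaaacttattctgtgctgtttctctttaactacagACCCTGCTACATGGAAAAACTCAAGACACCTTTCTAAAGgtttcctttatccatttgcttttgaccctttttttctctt
DNM1L exon 15: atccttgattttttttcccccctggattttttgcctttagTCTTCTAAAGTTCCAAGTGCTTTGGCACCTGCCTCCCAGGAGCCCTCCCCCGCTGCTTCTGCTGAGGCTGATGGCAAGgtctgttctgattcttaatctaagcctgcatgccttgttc
DNM1L exon 16: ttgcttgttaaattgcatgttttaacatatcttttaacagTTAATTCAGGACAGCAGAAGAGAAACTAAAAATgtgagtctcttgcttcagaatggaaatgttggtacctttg

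The 39-nt exon was nearly absent from NCI-H1975 cells, with 5 of 578 reads in the control libraries, all from the library in list position 3, and 2 of 446 in the SAM68 libraries. Its PSI was 0% to 2.15%. Exons 15 and 16 were each included at an intermediate level. Exon 15 before exon 16 had PSI values of 53.9%, 59.3% and 60.6% with the empty plasmid and 45.0%, 53.3% and 63.5% with SAM68, a difference of -3.99 points (standard error 5.74). Its direction rested on 1 library, since omitting the first listed SAM68 library gave 0.48 points, while omitting the third gave -8.77. Omitting the first or the third listed control gave -6.02 or -2.64 points. Exon 16 after exon 15 had PSI values of 55.1%, 49.3% and 60.3% with the empty plasmid and 61.6%, 69.7% and 56.6% with SAM68, a difference of 7.76 points (standard error 4.96), which became 4.97 points on omitting the second listed control and 4.24 on omitting the second listed SAM68 library. Exons 15 and 16 both had an adjusted p of 0.699 in these events, and the groups overlapped. Where exons 15 and 16 were compared as an MXE pair, exon 15 had 48.2%, 56.6% and 51.6% with the empty plasmid and 39.9%, 40.4% and 55.6% with SAM68 (-6.84 points, standard error 5.71, adjusted p = 0.760). Without each SAM68 library in turn this was -4.12, -4.40 and -12.0 points. DNM1L had no event with an unadjusted p under 0.05 among its 20. Its deepest SE events, of exons 18 (32740409 to 32740518) and 6 (32713209 to 32713371), had PSI values of 97.8% to 100%.

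**Figure D3:**
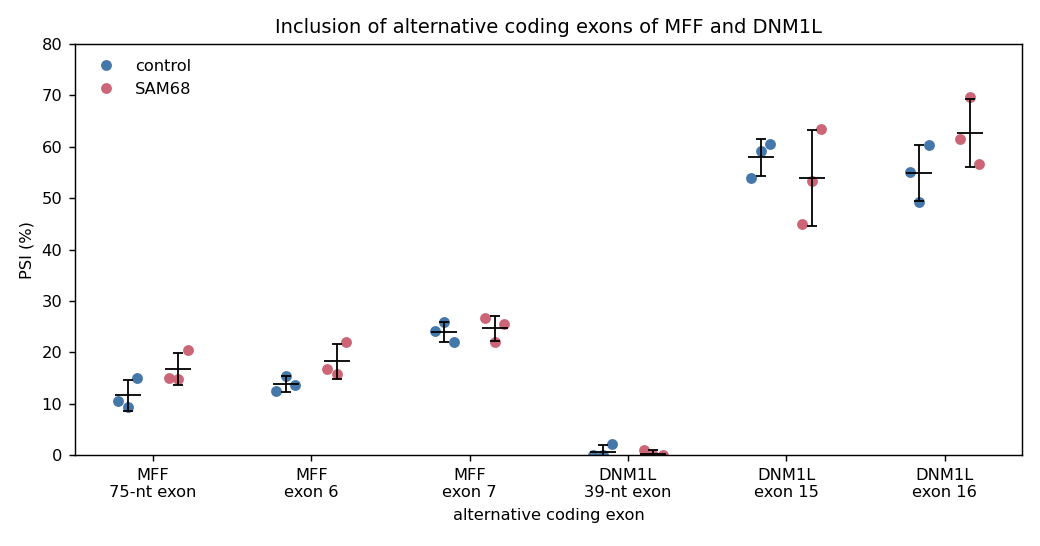
PSI (%) of the alternative coding exons of MFF and DNM1L in each library (points), with mean and SD over 3 libraries per group (bars), each from its event with the most reads. The groups overlap for all but MFF exon 6, whose difference of 4.38 points did not pass the test.

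The mitofusin genes had no coding exon that was skipped in many reads. MFN1 (ENSG00000171109.18, chromosome 3, 179347709 to 179394936, + strand) had its 8 SE events at a mean PSI over 95%. Exons 2 (179348845 to 179348963), 4 (179358840 to 179359002) and 17 (179390004 to 179390138), with the most reads, had PSI values of 98.7% to 100%. MFN2 (ENSG00000116688.16, chromosome 1, 11980181 to 12015211, + strand) had 6 of 9 SE events over 95% and 3 under 5%. Of these minor forms, the one with the largest difference was a 44-nt exon (11981810 to 11981853) found in non-coding transcripts, with 1, 1 and 2 inclusion reads with the empty plasmid and 5, 3 and 3 with SAM68. Its groups did not overlap (3.30%, 2.29% and 3.38% against 8.998%, 6.39% and 5.60%), and the difference of 4.01 points did not pass the test (adjusted p = 0.699).

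The remaining large differences of these genes were MXE events of neighbouring exons that are both included. MFN2 exons 3 (11989165 to 11989343) and 4 (11992555 to 11992690) were compared in the MXE event with the most reads. Exon 3 had a share of 58.2%, 62.1% and 59.4% with the empty plasmid and 57.4%, 49.4% and 52.7% with SAM68, without overlap. The difference of -6.69 points (standard error 2.59) had an unadjusted p of 0.00792 and an adjusted p of 0.282. In their SE events exon 3 had PSI values of 97.9% to 99.7% and exon 4 of 99.6% to 100%, so this share compares the reads at 2 included exons and not a choice between them. The MXE event of MFN2 exons 16 and 17 differed by -0.05 points (standard error 1.85). In MFN1, exon 11 (179377042 to 179377168) against exon 12 (179377344 to 179377448) had a share of 47.4%, 63.7% and 54.2% with the empty plasmid and 48.0%, 42.8% and 43.8% with SAM68. The groups overlapped, with a difference of -10.2 points (standard error 4.98, adjusted p = 0.626) that became -5.91 on omitting the second listed control. In their SE events exon 11 had PSI values of 97.4% to 100% and exon 12 of 93.6% to 100% over its 2 events. The other MFN1 MXE event compared exon 12 with a 474-nt exon annotated in non-coding transcripts. The 474-nt exon shares an end with exon 13, so its reads can include those of exon 13. This event differed by 4.57 points (standard error 4.39, adjusted p = 0.901). Omitting each control in list order gave 2.98, 2.65 and 8.09 points, and omitting each SAM68 library gave 2.86, 7.15 and 3.72. DNM1L exons 5 (32710929 to 32711015) and 6 had PSI values of 98.2% to 100% and 97.8% to 100% in their SE events, and their MXE event differed by -0.74 points (standard error 4.77).

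MTFR1 (ENSG00000066855.15) is on the + strand of chromosome 8, 65644734 to 65771261. Exons 3 and 4, with the most reads, had PSI values of 96.3% to 100% and 98.8% to 100%, and their MXE event differed by -2.19 points (standard error 1.4, adjusted p = 0.873). A longer form of exon 3, 124 nt, which shares its end with exon 3 and is annotated in non-coding transcripts, had PSI values of 90.7% to 100% and differed by 1.75 points (standard error 3.19). Its downstream junction and its skipping reads are those of exon 3, so this PSI does not show how often the longer form was used. A 34-nt exon between exons 3 and 4, also annotated in non-coding transcripts, was read 2, 6 and 0 times with the empty plasmid and 10, 10 and 8 times with SAM68. The 34-nt exon was named after its values were seen. Its PSI did not overlap between the groups, at 0.481% ± 0.547 and 1.96% ± 0.556 (SD, n = 3), and the adjusted p was 0.699.

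Among the SE events of the 6 genes, 23 had a mean PSI of 5% to 95%, and these were in MFF (15), OPA1 (4) and DNM1L (4). The exon length was a multiple of 3 in 19 of the 23 (82.6%), against 43.2% of the 11148 such events of all genes. In the events over 95% the share was 38.1% (16 of 42), against 39.4% of all genes. Several of the 23 events share an exon: the 75-nt exon, exon 6 and exon 7 of MFF had 3, 4 and 4 of them. The share is therefore a description and was not tested. The median absolute difference of the 23 was 3.13 points, and that of the events in this range in all genes was 5.05 points.

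The reads of each gene were compared by its event with the most reads, in rpm of the total of such reads. A gene counted as called with a log2 fold change of 1 or more in either direction and an adjusted p under 0.05. None of the 6 genes was called by limma, and 0.0493% of all 10145 genes were. At an unadjusted p under 0.05 there was 1 of the 6 genes, DNM1L, against 12% of all genes. It had 108, 90.8 and 91.3 rpm with the empty plasmid and 69.5, 80.8 and 83.2 with SAM68, each lower than each control library, a log2 fold change of -0.31 (standard error 0.0952, adjusted p = 0.148). MFN1 also had separate groups, with 45.6 to 48.1 rpm in the control and 41.3 to 44.5 in the SAM68 libraries (log2 fold change -0.14, standard error 0.111, adjusted p = 0.664). Such separation was found for 16.8% of all genes, and for 2 of these 6. OPA1 had 56.3 to 68.0 rpm and 53.7 to 57.5 rpm (log2 fold change -0.16, standard error 0.103). MFF had 102 to 113 rpm and 110 to 117 rpm (0.07, standard error 0.0796), MFN2 99.1 to 110 rpm and 109 to 126 rpm (0.17, standard error 0.0828) and MTFR1 121 to 145 rpm and 110 to 139 rpm (-0.11, standard error 0.0888). The levels of different genes are not compared, because the events differ in their number of junctions.

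**Figure D4:**
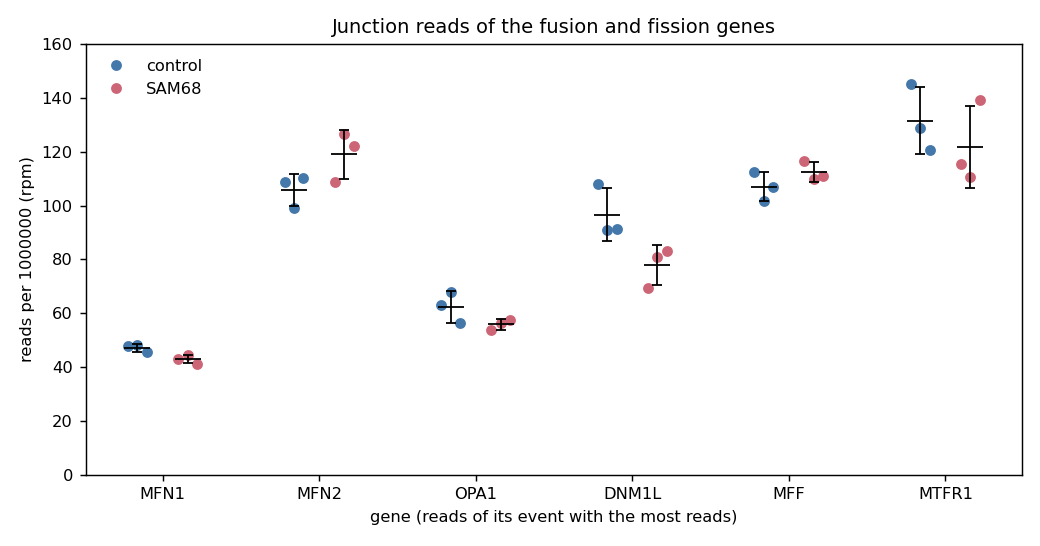
Junction reads (rpm) of the event with the most reads of each gene in each library (points), with mean and SD over 3 libraries per group (bars). DNM1L and MFN1 are lower in every SAM68 library than in any control library, and neither passed the test.

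Other genes of mitochondrial dynamics were taken from a list of 46 symbols, older names included, with proteases of OPA1, other DRP1 receptors, cristae and transport proteins and mitophagy factors. Of these, 40 had a tested event, with 324 events in all, of which 0 were called by the quasi-binomial test, 16 (4.94%) had an unadjusted p under 0.05, against 5.95% of all events, and 15 (4.63%) had groups that did not overlap, against 6.42%. Their median absolute difference was 0.949 points. The genes with the lowest unadjusted p were PHB2, which encodes a prohibitin of the inner membrane, RHOT1, which encodes a GTPase that links mitochondria to motor proteins, and DNM2, a dynamin. Each of these differences rested on 1 library. An 80-nt exon of PHB2 had 20 skipping reads and a PSI of 97.9% in 1 control library and a PSI of 100% in the other libraries (adjusted p = 0.177). An 84-nt exon of RHOT1 had 9 skipping reads and a PSI of 81.5% in 1 SAM68 library and 100% in the others (adjusted p = 0.573). A 12-nt exon of DNM2 had 12 inclusion reads and a PSI of 4.30% in 1 control library and 0% in the others (adjusted p = 0.680). In junction reads, 0 of the 40 genes were called by limma. An unadjusted p under 0.05 was found for 4 of the 40, against 12% of all genes, and these 4 had log2 fold changes of -0.48 to -0.36. The log2 fold changes of the 40 genes ran from -0.48 to 0.35, with a median of -0.02 against -0.03 for all 10145 genes.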

How the data were processed

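RNA-seq of NCI-H1975 cells was made by the authors in 3 libraries per group, aligned to GRCh38 with HISAT2 2.1.0 after filtering with fastp 0.20.0, and passed to rMATS (version not given in the sources used here). CASAVA 1.4 is also named in the submitters' processing notes. The deposited tables hold raw junction read counts of both forms of an event, as a list of 3 counts per group in 1 cell without replicate numbers, and effective lengths. They also hold the authors' PSI, p-value, FDR and difference in PSI, which were not used, except that PSI served to read cells altered by a spreadsheet. Of 275 such A3SS events, 167 were recovered and 108 left out, none of the 6 genes. An OPA1 A3SS count list has another possible reading. The tables do not name the groups. Controls were assigned to the first list of each pair after a plot in the study, and every direction rests on this assignment, under which KHDRBS1 was higher in the SAM68 libraries.

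PSI was computed from counts divided by effective lengths. The quasi-binomial test used dispersions moderated with limma 3.58.1 (R 4.3.3) within each event type, never below 1. Since the estimated prior degrees of freedom were infinite, each type had 1 common dispersion, and an event's own spread did not enter its p-value. P-values had Benjamini-Hochberg adjustment over all events of the type. Reads per gene were tested with limma on log2(rpm + 0.5). Tests were checked on simulated data, and permutation tests were two-sided. The simulated events had 1 dispersion per type, as the test assumes, so events that differ in spread were not checked. Positions and exon numbers came from GENCODE, sequences from the GRCh38 genome.

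The 6 genes and all lists were chosen with earlier results of these data known. Named events are the called event, in each gene the 3 with the most reads and the 2 with the largest difference at a mean of at least 20 reads, the alternative coding exons of OPA1, MFF and DNM1L, and those nearest the read minimum. Alternatives changed the spread, model, adjustment, read minimum, length normalization, scaling, pseudocount and libraries.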

Additional observations from a re-analysis of the deposited data

How the results depend on the processing

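No paired analysis was possible because the lists of counts carry no replicate numbers. The count of called events of the 6 genes, 1, became 0 when each event kept its own spread, 0 for limma on logit PSI and 2 with a likelihood ratio test on pooled counts, where an MXE event of MFN1 (-10.2 points) was added; with a library left out in turn it was 0 to 1. The rise of OPA1 exon 5 was not called with its own spread or with limma on the logit (46.0 points in both) or with the events of the exon summed (4.93 points), and with 1 library left out at a time it lay between 37.3 and 52.4 points. Its call was kept in 7 of 14 alternatives, with adjusted p from 1.24e-07 (likelihood ratio test on pooled counts) to 0.730 (quasi-binomial test, events summed). The kept calls include those without length normalization and without the limit on the difference, and neither setting changes the p-value. They also include the pooled test, which ignores the spread between libraries. The loss without each SAM68 library came with the same difference and fewer reads. All called events numbered 2 with their own spread, 3 with limma on the logit, 1354 with pooled counts and 172 without the limit on the difference. With a library left out they numbered 53 to 73. Of the 36 other named events, 14 kept their direction in every alternative, 5 had a difference of 0 but never the opposite sign, and 17 had the opposite sign in at least 1. No member gene was called in any alternative, none changed the sign of its log2 fold change, and DNM1L lay between -0.36 and -0.20 (lowest adjusted p 0.0830). Called genes of all numbered 3 with median-of-ratios scaling and 3 with all SE reads summed, and 1 to 14 with a library left out. For the other lost calls the cause was not tested. Depth limits the called event, at 13 to 29 reads per library.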

Other observations

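Other annotated minor exons of the 6 genes were listed at low levels without a difference that passed the test. The 15-nt coding exon of OPA1 at 193631755 to 193631769 had 2 inclusion reads in a control library and 0 in the other libraries. The 64-nt exon of DNM1L at 32709544 to 32709607, annotated in non-coding transcripts, had 3 inclusion reads in a control library and 0 in the others. The 2 OPA1 A3SS events at an upstream splice site of exon 6 (193618703) had 6 reads of this site in 1 control library after exon 4 and 3 reads in 1 SAM68 library after exon 5.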
